A study of Homo sapiens with 17 samples.

Results

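The 9 genes described here were 4 class I heavy chain genes (HLA-B, HLA-C, HLA-E and HLA-F), the stress ligand genes MICA and MICB, the peptide supply genes TAP1 and PSMB8, and the light chain gene B2M, out of 20037 protein-coding genes of the hg38 annotation. They were chosen by measured values of these same lists: whether a peak list held an interval within 1 kb of either annotated gene end, and where that interval's fold enrichment stood within its list. Levels and differences by state and isoform are therefore given as a description. Calls from a fit over all genes are counted beside the share of all genes called, and no support is drawn from them. The study followed the histone variants H2A.Z.1 and H2A.Z.2 with ChIP-seq, which sequences the DNA that an antibody recovers from chromatin, in Caco-2/15, a human colon cancer line whose cells take on features of absorptive enterocytes once the culture is confluent. One allele of H2AFZ (H2A.Z.1) or of H2AFV (H2A.Z.2) carried a Flag tag, so that an antibody to Flag recovered only the isoform made from the tagged allele. The 4 groups were H2A.Z.1-Flag in subconfluent cells, H2A.Z.1-Flag at 7 days of postconfluence, H2A.Z.2-Flag in subconfluent cells and H2A.Z.2-Flag at 7 days of postconfluence, with 2 experiments each. The 8 Flag lists were used, and the other 9 labelled samples were not analysed here. The sources do not say how many clones each tagged line came from, or whether the experiments were separate cultures, so the spread between lists may be technical.

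MHC class I molecules sit on the surface of nearly all nucleated cells and show CD8 T cells peptides made inside the cell. A heavy chain (such as HLA-B and HLA-C or, for the non-classical forms, HLA-E, HLA-F and HLA-G) pairs with the light chain beta-2-microglobulin, encoded by B2M. PSMB8 is a catalytic subunit of the immunoproteasome, which cuts proteins into peptides, and TAP1 is one chain of the transporter that carries those peptides into the endoplasmic reticulum. MICA and MICB resemble class I heavy chains but bind neither peptide nor beta-2-microglobulin; stressed and transformed epithelial cells display them, and the receptor NKG2D of natural killer cells reads them. H2A.Z replaces histone H2A in nucleosomes beside transcription starts, and its isoforms are encoded by separate genes. An interval reports where the tagged isoform was enriched, not how much RNA a gene made.

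All but B2M lie within 3.13 Mb of the MHC on chromosome 6; B2M lies on chromosome 15. The bases just before the start of transcription are shown, from RefSeq (GRCh38.p14), for 7 of these genes. All 8 whole lists had an interval over the start of each of them except HLA-F, which had one in 6; the intervals ranked for MICA and MICB lay farther upstream, as described below. Matches to 5 short motifs are in capitals: the CCAAT box (CCAAT), the half-site of the cyclic AMP response element (TGACG), a short form of the interferon-stimulated response element (GAAANNGAA), a short form of the kappaB site (GGGGATTCC) and a pair of heat shock units (GAANNTTC), each searched on both strands. Each sequence is 250 bases long and ends at the base before the start. The 3 heavy chain promoters are shown together to compare paralogs; HLA-B is at chr6:31357180-31357429 and HLA-C at chr6:31272093-31272342, both on the minus strand, and HLA-F is at chr6:29723184-29723433 on the plus strand.
HLA-B: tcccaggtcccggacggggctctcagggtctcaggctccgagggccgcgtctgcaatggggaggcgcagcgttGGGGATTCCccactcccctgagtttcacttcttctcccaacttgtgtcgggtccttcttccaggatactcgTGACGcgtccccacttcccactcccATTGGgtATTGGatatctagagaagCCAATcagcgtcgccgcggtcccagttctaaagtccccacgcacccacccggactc
HLA-C: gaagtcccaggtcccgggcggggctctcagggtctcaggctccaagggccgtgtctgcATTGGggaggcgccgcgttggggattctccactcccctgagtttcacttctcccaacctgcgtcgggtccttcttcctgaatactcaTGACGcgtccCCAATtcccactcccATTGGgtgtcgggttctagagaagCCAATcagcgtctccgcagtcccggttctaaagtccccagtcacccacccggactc
HLA-F: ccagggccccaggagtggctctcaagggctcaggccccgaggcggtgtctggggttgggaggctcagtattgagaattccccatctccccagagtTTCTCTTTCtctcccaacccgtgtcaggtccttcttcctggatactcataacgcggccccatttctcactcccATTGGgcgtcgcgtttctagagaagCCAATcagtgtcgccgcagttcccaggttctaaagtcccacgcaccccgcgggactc

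The 300-base windows that run from 250 bases before to 50 after the start were identical at 88.5% of aligned columns between HLA-B and HLA-C, 79.7% between HLA-B and HLA-F and 78.9% between HLA-C and HLA-F. All 3 heavy chain promoters held a reversed CCAAT box and, closer to the start, a forward one. The reversed box began at position -81 in HLA-B, -80 in HLA-C and -82 in HLA-F, counted from the start, and the forward one at -56, -56 and -57. The TGACG half-site stood at -106 in HLA-B and -105 in HLA-C, and no match lay in the HLA-F window. HLA-B alone among the 10 windows of these genes held the kappaB short form, which 0.324% of the 22199 promoter windows in the table held. HLA-F held 1 match to the interferon element, at -155. HLA-E had no window. Because the paralogs are this alike, reads of 85 bases from one can match another; the sources used here do not say how such reads were counted, and values of HLA-B, HLA-C, HLA-F, MICA and MICB are uncertain to that extent. The likeness of HLA-E to the other heavy chain genes was not measured, so its values may be uncertain in the same way. The sequences are those of the reference and not the alleles of the cell line.

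The stress ligand promoters are shown as a second pair of paralogs, MICA at chr6:31403345-31403594 and MICB at chr6:31497895-31498144, both on the plus strand.
MICA: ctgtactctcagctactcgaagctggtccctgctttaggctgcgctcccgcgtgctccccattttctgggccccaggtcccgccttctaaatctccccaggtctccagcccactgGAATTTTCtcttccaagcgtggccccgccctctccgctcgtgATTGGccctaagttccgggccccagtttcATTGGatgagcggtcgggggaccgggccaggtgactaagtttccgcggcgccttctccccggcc
MICB: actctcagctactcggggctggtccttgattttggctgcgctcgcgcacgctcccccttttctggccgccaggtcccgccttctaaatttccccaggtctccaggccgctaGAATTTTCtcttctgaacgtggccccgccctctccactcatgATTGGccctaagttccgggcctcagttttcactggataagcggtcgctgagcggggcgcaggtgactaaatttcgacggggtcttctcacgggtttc

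The MICA and MICB windows were identical at 78.2% of aligned columns. Both held the heat shock pair, at -135 in MICA and -139 in MICB, and no other window of the 10 did; 5.67% of all windows held it. Pairs of genes outside these 2 families were identical at 47.7% to 54.7% of columns.

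TAP1 and B2M are shown for their interferon-element matches, TAP1 at chr6:32853705-32853954 on the minus strand and B2M at chr15:44711267-44711516 on the plus strand.
TAP1: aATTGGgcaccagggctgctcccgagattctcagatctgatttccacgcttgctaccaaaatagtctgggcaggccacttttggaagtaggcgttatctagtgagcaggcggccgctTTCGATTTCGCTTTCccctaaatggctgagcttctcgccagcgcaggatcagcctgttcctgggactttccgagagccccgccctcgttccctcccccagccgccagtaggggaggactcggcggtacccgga
B2M: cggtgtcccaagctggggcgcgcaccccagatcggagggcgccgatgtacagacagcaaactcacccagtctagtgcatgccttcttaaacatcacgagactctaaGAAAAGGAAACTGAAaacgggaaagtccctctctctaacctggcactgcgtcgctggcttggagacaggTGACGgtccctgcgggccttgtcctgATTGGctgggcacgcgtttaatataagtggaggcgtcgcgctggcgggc

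In TAP1 the 2 matches to the interferon element overlapped, at -133 and -127, and in B2M at -144 and -138. Of the 10 windows of these genes (TAP1 and PSMB8 have 2 each), 4 held this element against 7.09% of all windows, 7 held a CCAAT box against 34.7% and 4 held the TGACG half-site against 27.9%. The windows of TAP1 and PSMB8 (second starts) held TTCNNNGAA, the GAS element of STAT factors, which 6.79% of all windows held, and those of HLA-C and B2M held the outward heat shock pair TTCNNGAA, against 6.73%; neither is capitalised. A match describes letters and shows neither binding nor regulation. The guanine and cytosine content of the 10 windows lay between 55.7% and 64.7%, on both sides of the median of 62.3% over all windows.

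The deposited lists held 30603 to 79425 intervals covering 18.5 to 46.9 Mb, and read depth is unknown because the lists carry no counts. For comparison all lists were cut to 30603 intervals, keeping those with the highest -log10 p; that is how many the shortest list held, the H2A.Z.2 subconfluent list of the second experiment. An interval's percentile is the share of its reduced list with a lower fold enrichment. Interval names placed the 8 lists in 3 sequencing runs: in the first experiment each isoform had its own run, so that isoform and run cannot be told apart there, and the second experiment shared 1 run. Both states of an isoform shared a run within each experiment. Of 8 epithelial marker genes, 4 had an interval in all 8 reduced lists and the others in 4 to 6 (EPCAM in 5, KRT8 and KRT18 in 4, VIL1 in 6). Of 10 blood cell markers 2 were in all 8 lists and 6 in none, and of 8 fibroblast markers 1 and 5.

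Of the 9 genes, 8 carried H2A.Z at a gene end in all 8 reduced lists; over all protein-coding genes the share was 54.5%, and 33.1% had an interval in no list. HLA-F was the exception, with an interval in 4 reduced lists. The order by mean percentile over 8 lists was HLA-C (80.1 ± 8.43, SD, n = 8 lists), HLA-E (78.8 ± 11.9), B2M (76.4 ± 10.3), TAP1 (72.8 ± 11.6), PSMB8 (63.3 ± 13.1), HLA-B (59.0 ± 12.9), MICA (57.9 ± 8.93) and MICB (52.0 ± 25.3). Neighbours in this order were 1.06 to 9.53 percentile points apart, less than the SD of either gene in each pair, so the order of neighbours is not resolved. The median of these means was 68.0 for the 8 genes and 76.9 for all 10919 genes occupied in all 8 lists. HLA-C and HLA-E lay above that median, with 58.2% and 55.0% of genes lower, and MICB lay deepest, with 11.2% of genes lower.

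**Figure D1:**
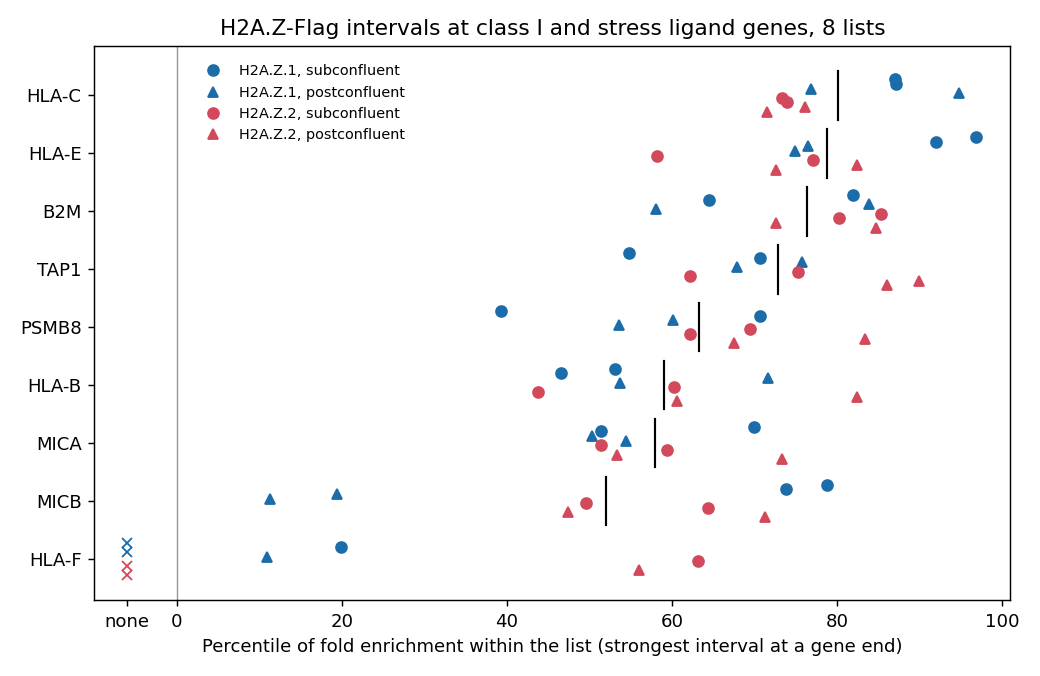
Percentile of fold enrichment of the strongest interval at a gene end (x axis, 0 to 100 within a reduced list) for each gene (rows); points are the 8 lists, coloured by isoform and shaped by state, black lines are means over 8 lists and crosses mark lists with no interval. On this scale MICB has its 2 postconfluent H2A.Z.1 points at 19.4 and 11.3, far below its other 6, and HLA-F is missing from 4 lists. In the whole lists those 2 MICB values were 55.4 and 63.5 and overlapped those of H2A.Z.2.

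Among the classical heavy chains, HLA-C (chr6:31268749-31272092, minus strand) had percentiles from 71.5 to 94.8. All its H2A.Z.2 percentiles lay below 76.9, the median of mean percentiles over the 10919 genes occupied in all 8 lists. In subconfluent cells its percentiles were 87.0 and 87.1 in the H2A.Z.1 lists (first experiment, then second, here and throughout) and 73.4 and 73.9 in the H2A.Z.2 lists. After confluence they were 76.9 and 94.8 for H2A.Z.1 and 76.1 and 71.5 for H2A.Z.2. Every H2A.Z.1 value thus exceeded every H2A.Z.2 value, by as little as 76.9 against 76.1, a pair whose order turned on the score scale used below. The deposited fold enrichment ran from 7.35 to 17.0, highest in the postconfluent H2A.Z.1 list of the second experiment.

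HLA-B (chr6:31353875-31357179, minus strand) stood lower. Its percentiles were 53.1 and 46.6 for H2A.Z.1 and 60.2 and 43.7 for H2A.Z.2 in subconfluent cells. The postconfluent percentiles were 71.6 and 53.7 for H2A.Z.1 and 82.4 and 60.6 for H2A.Z.2. In each of the 4 pairs of lists that share isoform, experiment and run, the postconfluent value was the higher one, by 0.84 and 0.26 score units for H2A.Z.1 and 0.90 and 0.51 for H2A.Z.2. The share of all genes with such agreement in all 4 pairs was not counted. A score is the normal deviate of a gene's rank among the 10919 genes in its list, so that 1 unit is 1 SD of all genes.

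HLA-E (chr6:30489509-30494194) presents peptides cut from the leader sequences of other class I chains to the NKG2A receptor of natural killer cells. Its subconfluent percentiles were 96.8 and 91.9 for H2A.Z.1 and 58.2 and 77.1 for H2A.Z.2. After confluence they were 76.5 and 75.0 for H2A.Z.1 and 82.4 and 72.6 for H2A.Z.2. The 2 subconfluent H2A.Z.1 lists stood above the other 6, which overlapped one another.

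HLA-F (chr6:29723434-29738532, plus strand), a non-classical chain, had its interval at the margin of the reduced lists. Percentiles were 63.2 and 56.0 in the H2A.Z.2 lists of the first experiment, subconfluent and postconfluent, and 19.9 and 11.0 in the H2A.Z.1 lists of the second. The other 4 reduced lists had none, and within each isoform and experiment both states gave the same answer. In the whole lists HLA-F had an interval over its start in 6 of 8, between the 34.9th and 79.8th percentile. The postconfluent H2A.Z.2 list of the second experiment had only a weak interval of 251 bp, 929 to 1179 bases after the start and so just inside the 1 kb limit, at the 4.18th percentile. Just outside that limit, the same list had a 492 bp interval 1057 to 1548 bases after the HLA-C start, with a fold enrichment of 4.70.

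HLA-G, a non-classical chain best known from the placenta, was in none of the reduced lists and had 1 weak interval, at the 5.32nd percentile of 1 whole list.

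MICA (chr6:31400711-31415315, plus strand) varied least of the 8 ranked genes, with a score range of 0.92 over the lists. At the annotated gene end its percentiles were 69.9 and 51.4 (H2A.Z.1) and 51.4 and 59.3 (H2A.Z.2) in subconfluent cells. After confluence they were 50.3 and 54.4 for H2A.Z.1 and 53.3 and 73.3 for H2A.Z.2. No group stood apart from the others at this position.

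MICB (chr6:31494918-31511124, plus strand) varied most, with a score range of 2.27. In subconfluent cells its percentiles were 78.8 and 73.9 for H2A.Z.1 and 49.5 and 64.3 for H2A.Z.2. After confluence they were 19.4 and 11.3 for H2A.Z.1 and 47.3 and 71.3 for H2A.Z.2. The fold enrichment behind the H2A.Z.1 values was 11.0 and 10.6 before confluence and 5.18 and 6.01 after it. H2A.Z.1 was therefore lower after confluence in both experiments, while the H2A.Z.2 lists overlapped between states. The low percentiles depend on the cut to equal length. In the whole lists the H2A.Z.1 percentiles were 86.1 and 88.0 before confluence and 55.4 and 63.5 after it. Those of H2A.Z.2 were 72.3 and 64.3 before confluence and 58.8 and 82.9 after it, so the postconfluent isoforms overlapped there.

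For MICA and MICB the annotated gene end is not where RefSeq puts the main start. The annotated low end lies 2884 bp before the MICA start and 3227 bp before the MICB start, beyond the 1 kb limit, and each gene had a separate block of H2A.Z at each position in all 8 lists. The upstream intervals were shared with noncoding genes in all 8 lists, MICA-AS1 for MICA and MICB-DT for MICB. At the start itself MICB was among the strongest sites: 99.5 and 98.4 (H2A.Z.1) and 86.7 and 98.6 (H2A.Z.2) in subconfluent cells, and 86.2 and 88.4 (H2A.Z.1) and 98.5 and 75.7 (H2A.Z.2) after confluence. The mean there was 91.5 ± 8.62 (SD, n = 8 lists), against 52.0 at the annotated end. H2A.Z.1 was lower after confluence at both positions. The score difference was -1.48 (SE 0.603) at the start and -2.15 (SE 0.495) at the annotated end. Score differences at starts come from a separate fit, with ranks among 9150 genes, so the 2 scales are not the same. The difference between positions was not tested. MICA at its start had percentiles of 51.7 to 77.7, against 50.3 to 73.3 upstream. There the 2 postconfluent H2A.Z.1 lists, at 54.7 and 51.7, stood below all the others. The MICA state difference in H2A.Z.1 was -0.67 (SE 0.501) at the start and -0.32 (SE 0.498) upstream, and the difference between these positions was not tested either.

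**Figure D2:**
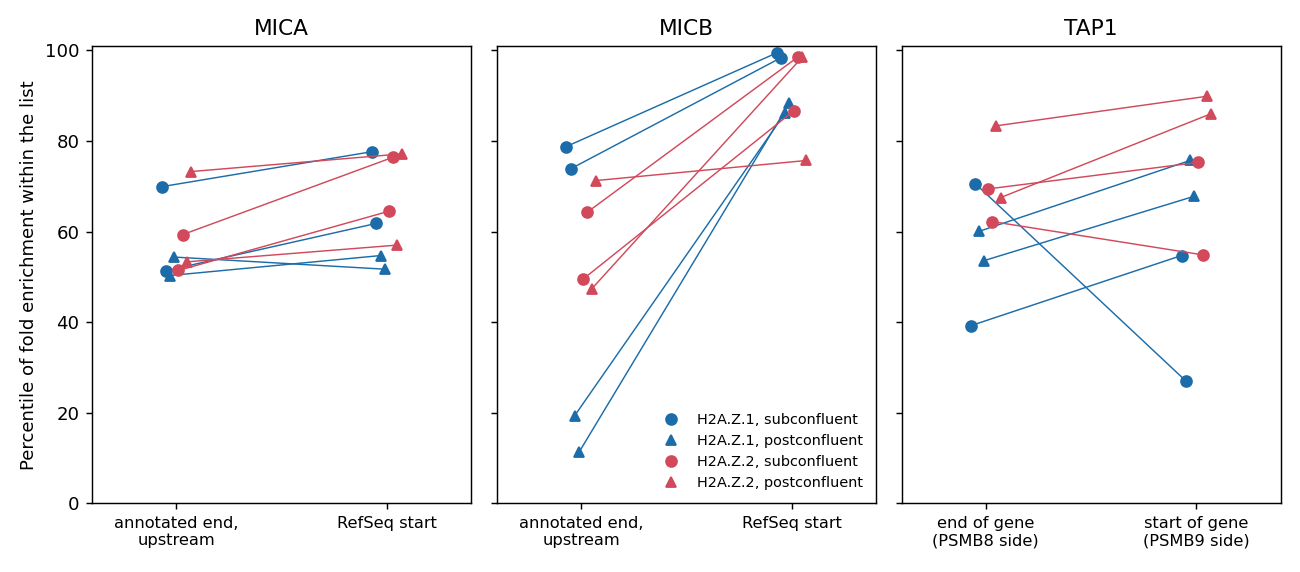
Percentile of fold enrichment within the reduced list (y axis) at 2 positions of MICA, MICB and TAP1; each line joins the values of 1 list, coloured by isoform and with circles for subconfluent and triangles for postconfluent cells. All 8 MICB lines climb towards the RefSeq start, and the 2 postconfluent H2A.Z.1 lines start lowest, at 19.4 and 11.3.

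The TAP1 gene (chr6:32845209-32853704, minus strand) is a close neighbour of PSMB8 on one side and of PSMB9, another immunoproteasome subunit, on the other. Its percentiles were 54.7 and 70.6 (H2A.Z.1) and 75.3 and 62.2 (H2A.Z.2) in subconfluent cells, and 75.7 and 67.8 (H2A.Z.1) and 89.9 and 86.0 (H2A.Z.2) after confluence. The values 70.6 and 62.2, both from the second experiment, belonged to the PSMB8 start, 530 bp from the far end of TAP1. At the TAP1 start alone, which is shared with PSMB9 in all 8 lists, the percentiles were 54.7 and 27.1 (H2A.Z.1) and 75.3 and 54.9 (H2A.Z.2) before confluence. After confluence they were 75.7 and 67.8 for H2A.Z.1 and 89.9 and 86.0 for H2A.Z.2. In all 4 pairs of lists the TAP1 start stood higher after confluence. The score difference over both isoforms was 1.14 (SE 0.364) there, in the separate fit of starts. It was 0.66 (SE 0.357) with both ends considered, on the scale of the main fit. The share of all genes that agree in all 4 pairs was not counted, so no weight is placed on that agreement. Over both isoforms the states overlapped at this start (75.3 before confluence, 67.8 after it), a position chosen after seeing the data.

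PSMB8 (chr6:32840717-32844679, minus strand) had percentiles of 39.3 and 70.6 (H2A.Z.1) and 69.4 and 62.2 (H2A.Z.2) in subconfluent cells. The postconfluent percentiles were 60.1 and 53.6 for H2A.Z.1 and 83.4 and 67.5 for H2A.Z.2. The experiments disagreed for H2A.Z.1, where the postconfluent value was higher in the first and lower in the second. B2M (chr15:44711517-44718145, plus strand) stood at 81.9 and 64.4 (H2A.Z.1) and 85.4 and 80.2 (H2A.Z.2) before confluence. After it, B2M stood at 83.9 and 58.0 for H2A.Z.1 and 72.5 and 84.7 for H2A.Z.2, and no group was apart from the others. Its interval was shared with PATL2, a neighbouring gene with an annotated end close by, in all 8 lists. A second, weaker B2M interval downstream of the start, overlapping chr15:44712617-44713017, was in 7 reduced lists at the 17.5th to 50.5th percentile and in all 8 whole lists.

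The shape of the intervals was not part of the choice of genes. Over the starts, intervals of the whole lists were broadest at TAP1, from 1073 to 2615 bp with a median of 2326 bp. In the H2A.Z.2 subconfluent list of the second experiment the TAP1 block was split, which gave the 1073 bp. The strongest TAP1 interval at a gene end was wider than that of 97.4% of the 10919 genes, by the median over reduced lists. Widths of the other 7 lay within the 30.5th to 71.1st percentile of genes, from MICB to HLA-E. For MICA and MICB these were the upstream intervals, with median widths of 1414 and 878.5 bp. Over their starts the median widths in the whole lists were 1726 bp for MICA and 1182.5 bp for MICB. Summits at MICB lay before the start in all 8 lists and at PSMB8 after it in all 8. At HLA-C and B2M 7 of 8 summits lay before the start, at TAP1 6, and at HLA-B and MICA 4.

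**Figure D3:**
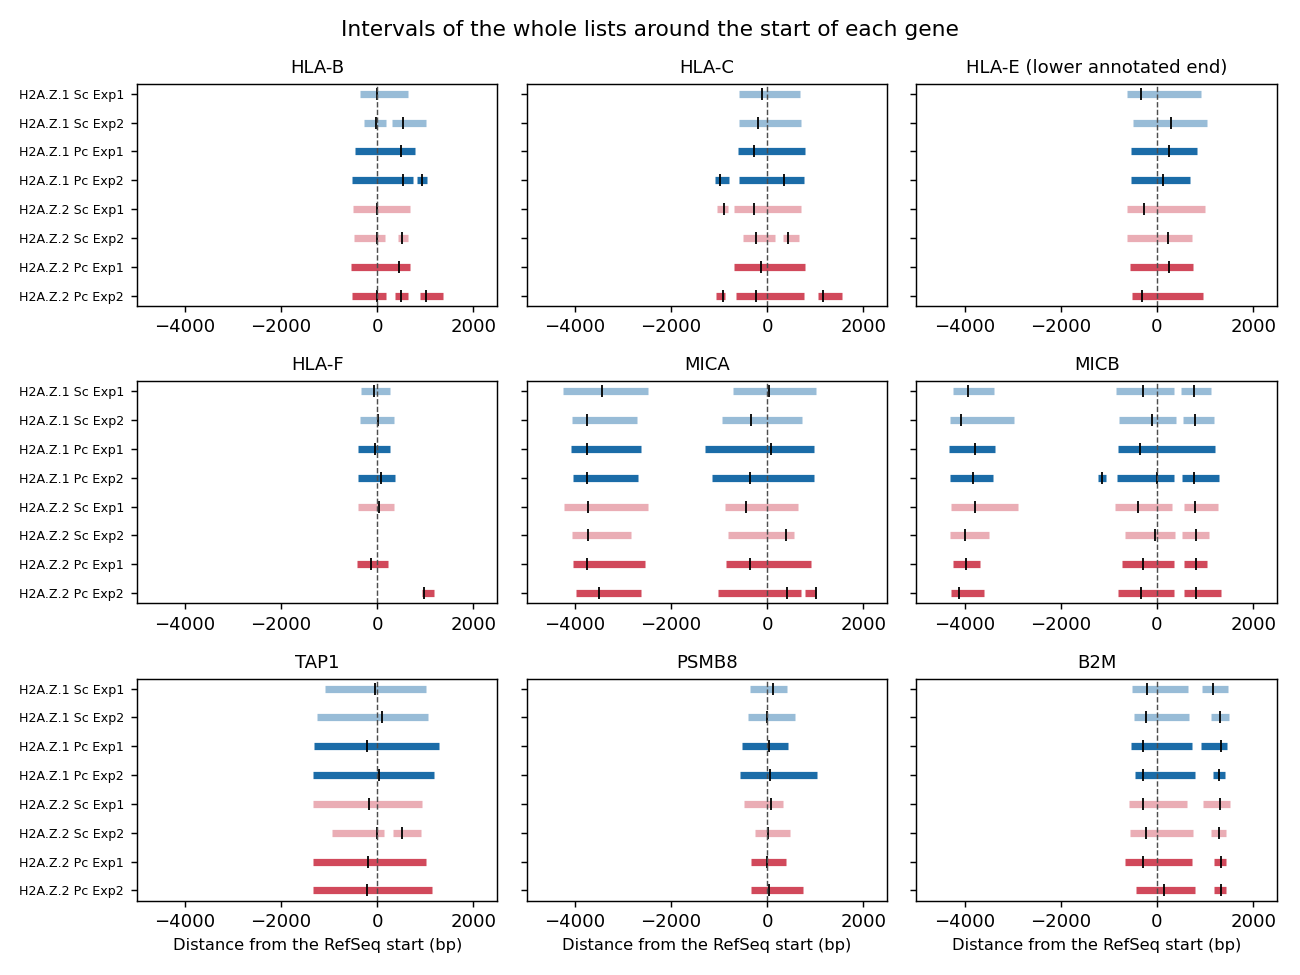
Intervals of the whole lists (bars) and their summits (ticks) by distance from the RefSeq start, or from the lower annotated end for HLA-E (x axis, bp, negative before the start); rows are the 8 lists, with H2A.Z.1 in blue, H2A.Z.2 in red, subconfluent pale and postconfluent dark. MICA and MICB show a separate upstream block in all 8 lists, TAP1 has the broadest block, up to 2615 bp, and HLA-F has none over its start in 2 lists.

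The study's design sets the states against each other within each isoform. For H2A.Z.1, none of the 9 genes was in both lists of one state and neither of the other, where 1.1% of all genes were. Scores did not overlap between states for 3 of 8 genes: HLA-B was higher after confluence, and HLA-E and MICB were lower. The same lack of overlap held for 35.3% of all genes. Shares for overlap and for limma calls, here and below, are of the 10919 genes occupied in all 8 lists. Shares for genes on one side only are of all 20037 protein-coding genes. The score difference was -2.15 (SE 0.495) for MICB and -1.27 (SE 0.500) for HLA-E, and within the experiments, each of which is 1 run here, it was -2.19 and -2.11 for MICB and -1.51 and -1.03 for HLA-E. HLA-B differed by 0.55 (SE 0.524). For H2A.Z.2, none was on one side only (1.09% of all genes), and TAP1 alone did not overlap (35.5% of all genes), with a difference of 0.92 (SE 0.504), 0.76 and 1.07 in the 2 experiments. MICB differed by 0.05 (SE 0.495) and HLA-E by 0.36 (SE 0.500) in H2A.Z.2; whether the state differences differed between isoforms was not tested.

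Between isoforms in subconfluent cells, none of the genes was on one side only (0.818% of all genes). HLA-C, HLA-E and MICB were lower in H2A.Z.2 without overlap, a pattern that 31.1% of all genes showed in either direction. The score differences were -0.68 (SE 0.513) for HLA-C, -1.55 (SE 0.500) for HLA-E and -0.74 (SE 0.495) for MICB. In the second experiment, where the isoforms shared a run, HLA-C differed by -0.74, HLA-E by -0.96 and MICB by -0.45. In the first, where isoform and run cannot be told apart, the differences were -0.62, -2.14 and -1.02. In postconfluent cells, again none was on one side only (0.639% of all genes). MICB, TAP1 and PSMB8 were higher in H2A.Z.2 without overlap (29.8% of all genes in either direction), by 1.46 (SE 0.495), 0.84 (SE 0.504) and 0.78 (SE 0.540). Within the second experiment, whose lists share a run, MICB differed by 1.89, TAP1 by 0.83 and PSMB8 by 0.44. The MICB values are those of the upstream interval shared with MICB-DT. At the MICB start the postconfluent isoforms overlapped and differed by 0.29 (SE 0.603) in the separate fit of starts.

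Over both isoforms, postconfluent minus subconfluent, no gene of the 9 was on one side only (0.19% of all genes) and none was free of overlap between 4 and 4 lists (5.52%). MICB had the lowest difference, -1.05 (SE 0.350), and TAP1 and HLA-B the highest, 0.66 (SE 0.357) and 0.63 (SE 0.370). Over both states, H2A.Z.2 minus H2A.Z.1, again none was on one side only (0.0499%) or without overlap (2.04%). HLA-E and HLA-C stood lowest at -0.73 (SE 0.354) and -0.72 (SE 0.363), and PSMB8 and TAP1 highest at 0.64 (SE 0.382) and 0.59 (SE 0.357). With a 2 kb window the PSMB8 difference took the opposite sign, -0.92. That window takes in stronger intervals more than 1 kb from either PSMB8 end, so the value is not that of the interval at its start.

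limma with Benjamini-Hochberg adjustment over all 10919 genes called none of the 8 in any of the 6 comparisons. It called 0.055% of all genes for state over both isoforms and 0% in the other 5 comparisons. The 6 calls behind the 0.055% became 12 without the postconfluent H2A.Z.1 list of the first experiment, 4 and 2 without the subconfluent lists H2A.Z.1 of the second and H2A.Z.2 of the first, and 0 without any one of the postconfluent H2A.Z.1 list of the second, the subconfluent H2A.Z.2 list of the second and the postconfluent H2A.Z.2 list of the first. At an unadjusted p under 0.05 the 8 genes counted 2 (HLA-E and MICB) for state in H2A.Z.1, where all genes counted 755, and 0 for state in H2A.Z.2 (637 of all). The count was 1 for isoform in subconfluent cells (HLA-E; 405 of all), 1 for isoform in postconfluent cells (MICB; 385), 1 for state over both isoforms (MICB; 997) and 0 for isoform over both states (409). These comparisons entered the choice of the genes, so the counts are a description.

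**Figure D4:**
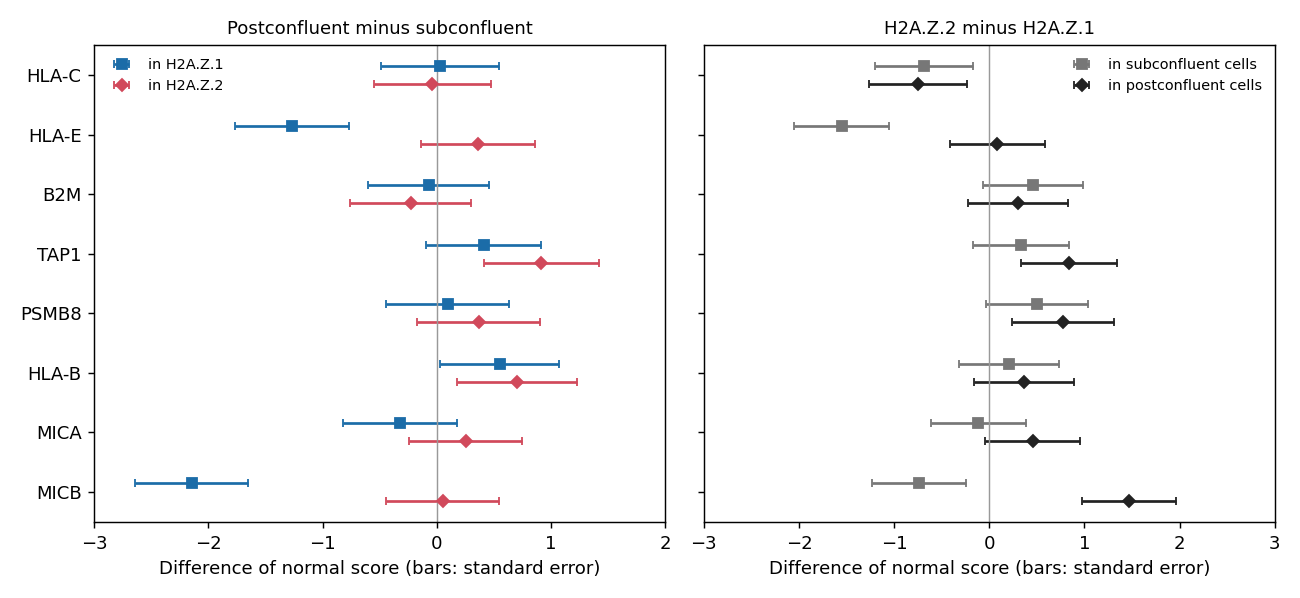
Score differences (x axis, SD units of all genes) with standard errors from the fit over all 8 lists, for postconfluent minus subconfluent cells in each isoform (left) and H2A.Z.2 minus H2A.Z.1 in each state (right); rows are the 8 genes present in all lists. MICB in H2A.Z.1, at -2.15, lies farthest from 0, and MICB in postconfluent cells, at 1.46, is highest on the right.

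The rest of the class I pathway was described from lists of known genes. Of 13 other genes of peptide cutting, transport, loading and trimming, 12 were in all 8 lists. ERAP2, an aminopeptidase that trims peptides, was in 2. Among those 12, TAP2, the partner chain of TAP1, had the highest mean percentile (93.0 ± 10.6, SD, n = 8 lists) and PSMB9 the lowest (66.4 ± 20.4), from the start it shares with TAP1. The constitutive subunits PSMB5, PSMB6 and PSMB7, which the immunoproteasome subunits replace, were in all 8 lists, with means from 52.7 (PSMB5) to 76.9 (PSMB7).

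Of 15 transcription factors that act on class I genes, 14 were in all 8 lists and IRF9, part of the interferon-activated complex ISGF3, was in 5. Among those 14, NFYB, a subunit of the CCAAT-binding factor, was highest at 94.2 ± 4.79 (SD, n = 8 lists), and STAT2, also of ISGF3, was lowest at 37.6 ± 19.4. All 9 interferon receptor and kinase genes were in all 8 lists, from IFNGR2 at 55.8 to IFNLR1, the receptor chain for type III interferon, at 98.7. Of 6 NKG2D ligand genes outside the MHC, 4 were in all 8 lists, from RAET1G at 55.6 to ULBP3 at 93.4, and RAET1E and RAET1L were in none.

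MHC class II genes, which professional antigen-presenting cells use, mostly had no interval. Of 12, 9 were in none of the reduced lists (HLA-DRA, HLA-DRB1, HLA-DQA1, HLA-DQB1, HLA-DPA1, HLA-DPB1, HLA-DMB, HLA-DOA and HLA-DOB) and HLA-DMA was in 3. CIITA, the class II transactivator, stood at 95.6 ± 3.62 (SD, n = 8 lists) and CD74, the invariant chain, at 34.8 ± 17.6. Of 10 class I-like genes, HFE (94.3) and FCGRT (51.5) were in all 8 lists, PROCR was in 6, MR1 in 2, and the CD1A to CD1E genes and AZGP1 were in none. In each of these lists limma called 0 genes in each of the 6 comparisons.

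Across the 8 lists, the genes whose scores ran most like MICB were BLOC1S2, TIA1, DDX55, SLC19A2 and FKBPL, with Pearson's r from 0.95 to 0.97. For HLA-E they were DPM2, FBXL15 with PSD, and SRP68 with GALR2 (0.92 to 0.93; each pair has the same values), and for PSMB8 they were SLC39A8, GOT2, BATF2, EFHD2 and RAB11FIP5 (0.90 to 0.92). Among the 8 genes themselves r was 0.84 for PSMB8 and TAP1, which share an interval, 0.78 for TAP1 and HLA-B and -0.80 for HLA-C and B2M. These are descriptions over 8 lists that share runs and list lengths, picked as the highest of many.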

How the data were processed

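ChIP-seq peak lists of Flag-tagged H2A.Z.1 and H2A.Z.2 were used as deposited. Reads were single-end, 85 bp, per the labels' protocols, and hg38, BWA and deepTools are named in the submitters' processing notes. The peak caller, its control, any use of the spike-in chromatin and the handling of reads matching several places were not stated in those sources. The deposited files have the 10 columns of the narrowPeak format: an integer score, a fold enrichment (ratio), -log10 p and -log10 q for each interval, per the format's column order, and a summit offset. The lowest deposited -log10 q was close to 3 in each list.

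Intervals overlapping by 1 bp or more a window of 1 kb around either annotated gene end were assigned to protein-coding genes of the RefSeq table (GRCh38). All lists were cut to the 30603 intervals with the highest -log10 p, and the strongest interval by fold was ranked within it. Normal scores over 10919 genes were fitted with limma 3.58.1 in R 4.3.3 as 4 group means with a shared spread, after a test on simulated data. Python 3.11.15, pandas 2.3.3, numpy 2.4.6 and biopython 1.88 (pairwise alignment of promoter windows) were also used. SEs come from that fit, or for RefSeq starts from a like fit over 9150 genes, with 2 lists in a group.

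The members, gene lists and tests were chosen with earlier results of these data known. All members are named; of each other list, the genes absent from some or all lists and the highest and lowest are named, with the 5 genes most like each of the 3 members of largest score range. Deviations of same-numbered lists correlated at 0.21 and 0.16 between states of an isoform and at -0.05 to 0.05 across isoforms, so experiment number was not used as a block. The block tried as an alternative was common to both isoforms. A block for each isoform within each experiment was not fitted, so the SEs do not use that pairing of states. Alternatives were other list lengths, windows, thresholds and ranks, each list left out in turn, and the block. One gene of the other lists is not reported here.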

Additional observations from a re-analysis of the deposited data

How the results depend on the processing

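Of 203 repeats of the counts over the 9 genes, 197 stayed within 1.5 times the main count, including some that could not move, as said below. The number of genes with an interval in all 8 lists was 8 and became 5 both with lists of 15301 intervals and with lists of equal covered length (HLA-C, HLA-E, MICA, TAP1 and B2M in both). With shorter lists some genes were in both lists of one group and neither of the other, where the main count was 0. For state in H2A.Z.1 these were 2 with 15301 intervals (HLA-B only after confluence, MICB only before it) and 1 with equal covered length (MICB). For isoform in postconfluent cells they were 2 with 15301 intervals and 2 with equal covered length (MICB and PSMB8, in H2A.Z.2 only). Leaving out 1 list could not change the 8 occupied genes, because HLA-F was in only 4 reduced lists, so those repeats show nothing about stability. With each list left out in turn, the counts of genes on one side only and of genes called by limma stayed at 0.

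With the replicate block limma called 0 of the 8 genes in each of the 6 comparisons. Over all genes, the block moved the calls for state over both isoforms from 6 to 14, for state in H2A.Z.1 from 0 to 2 and for state in H2A.Z.2 from 0 to 1. Under the other alternatives the 6 calls became 44 when ranked by -log10 p, 14 with the stricter threshold, 13 with whole lists, 3 with summits inside the window, 3 at RefSeq starts, 4 with a 2 kb window, and 0 with lists of 15301 intervals, of equal covered length or on raw percentiles. Elsewhere no alternative called more than 3 genes in a comparison. The numbers are shared, and the labels do not say that they mark a common batch.

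Single values moved with the position used. At RefSeq starts, an alternative chosen after seeing the data, the mean percentile of MICB was 91.5 and its isoform difference -0.28, opposite in sign to 0.36 at the gene ends, and the state difference of MICA was -0.42 against -0.03. The differences at starts are on the scale of the 9150 genes of that fit. With a 2 kb window the mean of PSMB8 became 94.8, its state difference -0.52 and its isoform difference -0.92, both opposite in sign to the main values of 0.23 and 0.64. The wider window takes in stronger intervals more than 1 kb from either PSMB8 end. Its mean of 94.8 exceeds 83.4, the highest percentile of the interval at the PSMB8 start in any reduced list. These values as a whole are therefore not those of the interval at its start. Leaving out 1 list in turn moved the state difference of PSMB8 between -0.11 and 0.56, of HLA-C between -0.31 and 0.30, of B2M between -0.43 and 0.13 and of MICA between -0.20 and 0.14. It left MICB between -1.22 and -0.84, HLA-E between -0.62 and -0.29, TAP1 between 0.47 and 0.85 and HLA-B between 0.36 and 0.89. Read depth is unknown, and an absent interval shows only that none passed the deposited threshold or the reduction.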
